A study of Triticum dicoccoides with 12 samples.

Results

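Of 61115 wheat probe sets measured in leaf tissue of wild emmer wheat, 13 were seen only in well-watered plants of the drought-susceptible genotype A24-39. They were selected on the signals of all 12 arrays: each exceeded an upper threshold on all 3 well-watered arrays of A24-39 and stayed below a lower threshold on the 9 other arrays. The lower threshold was the level that 95% of signals on control probe sets stayed under, and the upper threshold was 2 times as high. Everything about their height in that group is therefore a description without a test. The 4 groups, of 3 arrays each, were the drought-resistant genotype Y12-3 (R) and the drought-susceptible genotype A24-39 (S), each either well watered or under terminal drought. Both genotypes were grown in quartz sand with peat (4 to 1 by volume), and phyllome (leaf-like organs) was sampled at 10 weeks, in the reproductive phase. Nothing in the labels says whether the arrays of a group came from separate plants or from pools. Their spread may therefore be partly technical.

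Wild emmer is the tetraploid wild ancestor of cultivated emmer and durum wheat, and most of its genes have a close copy on its other subgenome. Terminal drought is a shortage of water during flowering and grain filling. In grass leaves it closes the stomata, slows growth and photosynthesis and lowers the transcripts that serve them, and accessions from different sites can differ in which gene copies they express. A transcript high in watered leaves of 1 genotype, and low both in its own droughted leaves and in the other genotype, combines both kinds of difference.

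The array reports a hybridization signal per probe set (deposited intensity, linear scale, no unit). On 23 control probe sets that target no wheat transcript, the median signal was 18.7, the 95th percentile was 129.1 and the highest of 276 values was 349.8. That 95th percentile, rounded to a whole number, is the lower threshold, called the control level below. Just 1 of the 276 control values reached the upper threshold of 2 times that level, on well-watered R replicate 3. That array also had the highest median signal over wheat probe sets, 151.5, against 58.6 to 103.3 on the other 11. Of 6 genes looked up as markers of leaf, the annotation held 3, FBP, GAPN and petC. The brighter probe sets of FBP and petC and that of GAPN lay above the control level on all 12 arrays. All 3 were lower under drought in both genotypes, so their signal also depends on the water regime. Of 7 genes looked up as markers of grain, the annotation held 3, the thionin genes TTHV, THI1.1 and THI1.2. They exceeded the control level on at most 1 array per probe set. A further probe set each of FBP and petC was dim, at 24.7 to 99.9 and 5.26 to 23.0 in well-watered S, where their brighter probe sets measured 15541 to 16057 and 55728 to 66502. Signals of different probe sets depend on the probes as well as on the transcript, so an order of brightness among probe sets is not an order of transcript amounts. The leaf samples are bulk tissue, so fewer cells of a type and less RNA per cell cannot be told apart. Between genotypes, a smaller amount of a transcript and a transcript that matches the probes less well also cannot be told apart.

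Transcripts seen in a single group were few in every group. The same rule gave 13 probe sets for well-watered S, 26 for the watered R arrays, 7 for R under drought and 8 for S under drought. Of the 15471 probe sets that reached the upper threshold on all 3 well-watered S arrays, these 13 were 0.084%, and 12881 (83.3%) were at or above the control level on all 9 other arrays. The corresponding shares were 0.164% for well-watered R, 0.0486% for R under drought and 0.0535% in S under drought. The order of the groups depended on the scaling of the arrays. With the medians of the arrays made equal, well-watered S held 17 probe sets and well-watered R 8, and with quantile normalization they held 15 and 14. R under drought held 13 and 10, and S under drought 8 and 7. Of the 13 probe sets described here, 10 met the rule after median scaling, 11 after quantile normalization and 8 after both.

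**Figure D1:**
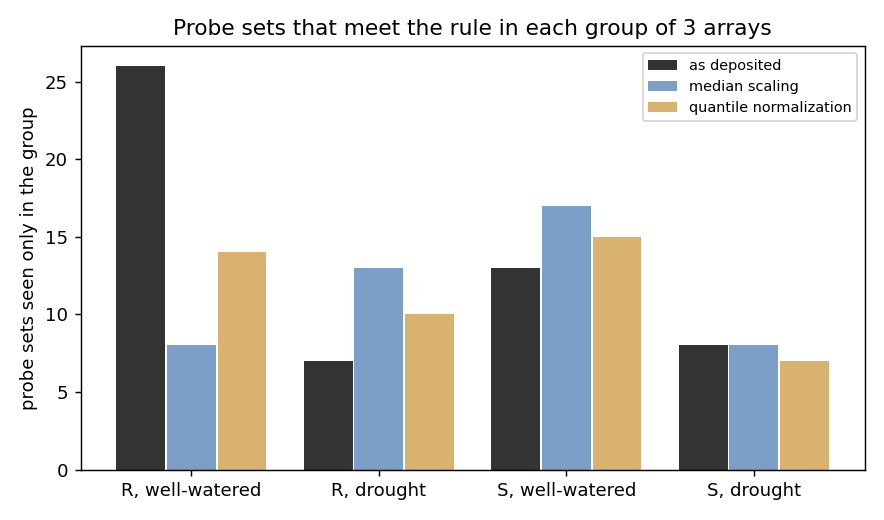
Number of probe sets at or above the upper threshold on all 3 arrays of a group and below the control level on the 9 other arrays (y axis), for each of the 4 groups (x axis), with bars for the deposited values, median scaling and quantile normalization. Well-watered S stood at 13, 17 and 15, while well-watered R fell from 26 to 8 and 14.

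The 13 probe sets of well-watered S were dim and even. Their level (geometric mean over the 3 arrays) ran from 306.9 to 578, with a median of 348. The single-group probe sets of well-watered R reached 1602, those of R under drought 5408 and those of S under drought 1783, with medians of 451, 772 and 491. The highest control value, 349.8, came from well-watered R replicate 3, the array with the highest median. Without rescaling, just 2 of the 13 exceeded it on all 3 of their arrays, against 12 of 26, 5 of 7 and 3 of 8 in the other groups. None reached 4 times the control level on all 3 arrays, against 4, 4 and 2. The coefficient of variation over the 3 arrays had a median of 12.97%, against 30.3%, 33.7% and 41.1%. The rule holds every signal at or above the upper threshold, which leaves dimmer probe sets less room to vary downward. Levels and spreads are on deposited values. The array medians ran from 73.0 to 81.3 in well-watered S and from 78.1 to 151.5 in well-watered R. They ran from 58.6 to 79.5 in R under drought and from 76.5 to 78.0 in S under drought. Their part was not tested. These are descriptions of groups of probe sets that share no member, and no difference between them was tested.

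The brightest of the 13 was Ta.13705.1.A1_at, which the annotation pairs with no gene. It measured 811, 731 and 325 on the 3 well-watered S arrays (623 ± 261, SD, n = 3). On the other arrays it measured 14.8, 51.9 and 71.0 in well-watered R, 1.84, 9.53 and 2.17 in R under drought and 36.4, 114 and 49.0 in S under drought. It was also the most variable of the 13, since replicate 3 stood at less than the others while still clear of all 9 other arrays. With each dim array set to the control level, its level was at least 4.48-fold higher than in each other group. The rule itself fixes such a ratio at 2 or more.

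Ta.9807.1.A1_at was nearly as bright and far more even. Its well-watered S signals were 525, 466 and 577 (523 ± 55.7, SD, n = 3), all above the highest control value. It measured 17.4, 25.3 and 29.5 in well-watered R, 4.43, 10.3 and 8.02 in R under drought, and 17.2, 48.6 and 27.5 in S under drought. All 9 other signals were under the control level, 5 of them under the control median. It was at least 4.04-fold higher than in each other group.

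TaAffx.12040.1.S1_at had the most even level, 412, 462 and 437 in well-watered S (437 ± 25.02, SD, n = 3). In well-watered R it measured 6.27, 7.13 and 15.5, in R under drought 55.9, 103.7 and 64.7, and in S under drought 119, 76.5 and 88.6. All 9 lay under the control level, so no order of these groups was measured. It was at least 3.38-fold higher than in each other group.

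TaAffx.79111.1.S1_at had the lowest ceiling on the other arrays, at a modest level of its own. It measured 361, 311 and 300.2 in well-watered S (324 ± 32.4, SD, n = 3). Its 9 other signals ran from 3.69 to 22.2, and 8 of them lay under the control median. Against the control level, it was at least 2.50-fold higher than in each other group, the ninth such bound among the 13.

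The only member with a gene in the platform annotation was Ta.4878.1.S1_at, paired with LOC543071, for which no function is given. It measured 277, 570.0 and 397 in well-watered S (415 ± 147, SD, n = 3). Its other signals came near the control level in well-watered R (40.3, 88.2 and 117) and in S under drought (66.1, 113 and 83.6). In R under drought it measured 41.1, 2.31 and 48.9. It was at least 3.08-fold higher than in each other group.

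**Figure D2:**
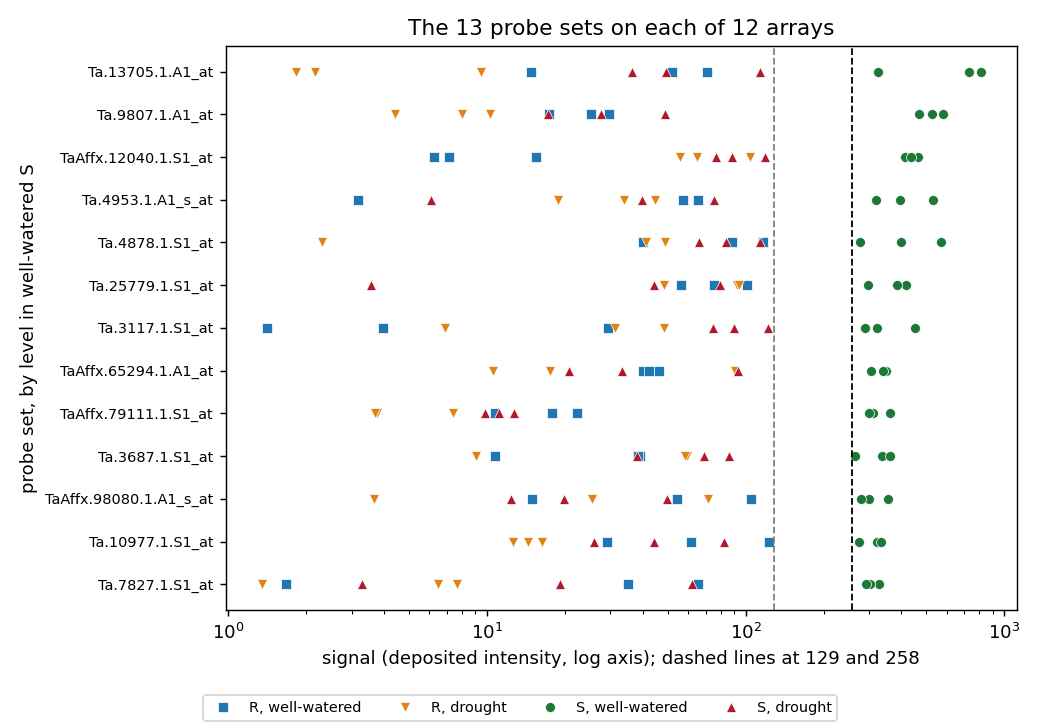
Signal (x axis, deposited intensity, log axis) of each of the 13 probe sets (y axis, brightest in well-watered S at the top) on the 12 arrays, 1 point per array, with dashed lines at the control level and at the upper threshold. The well-watered S points lie to the right of the upper threshold in every row; Ta.13705.1.A1_at is the brightest and most spread, and TaAffx.79111.1.S1_at has no other signal above 22.2.

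The other 8 carried no gene name and lay between 265 and 530.15 on the well-watered S arrays. Ta.4953.1.A1_s_at measured 319.7, 530.15 and 394 there, and at most 75.4 elsewhere. Ta.25779.1.S1_at measured 417, 384 and 297, and at most 101.3 elsewhere. Ta.3117.1.S1_at measured 451, 289 and 322, and at most 122.6 elsewhere, in S under drought. These 3 had coefficients of variation of 17.0% to 25.7%, and each was above the highest control value on 1 or 2 of its 3 arrays.

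The last 5 were dimmer still. TaAffx.65294.1.A1_at measured 305, 350.2 and 338 in well-watered S, and Ta.3687.1.S1_at 337, 265 and 362. TaAffx.98080.1.A1_s_at measured 356, 299 and 279, and Ta.10977.1.S1_at 322, 275 and 332. Ta.7827.1.S1_at was the dimmest, at 329, 301.5 and 292 (307 ± 19.0, SD, n = 3), but its 9 other signals stayed at or under 65.5. Ta.10977.1.S1_at and Ta.7827.1.S1_at exceeded the highest control value on none of their arrays. At these levels the 13 lay between the 71.0th and the 84.0th percentile of the well-watered S arrays.

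The 13 stood at similar heights on the 3 well-watered S arrays, each of which the rule held at or above the upper threshold. The arrays did not limit the list evenly. In the choice repeated without each array, described below, leaving out replicate 1 added 9 probe sets, replicate 2 added 2 and replicate 3 added 4. Replicate 1 was the brightest array for 6 probe sets, replicate 2 for 4 and replicate 3 for 3, and the median over the 13 was 356, 350.2 and 332. In 9 of the 13 the highest of the 3 signals was less than 1.5 times the lowest, and in 2 it was 2 times or more.

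On the 9 other arrays the rule kept all 117 signals of the 13 under the control level, so no order of the other groups was measured by them. Under the control level does not mean absent. Just 4 of the 13 lay above the array median on none of these arrays, and 3 did on 3 or more. The median over the 13 ran from 39.6 to 49.6 on the arrays of S under drought, from 25.3 to 42.2 on those of well-watered R and from 10.5 to 31.3 on those of R under drought. Of 39 values per group, 8 lay under the control median in S under drought, 13 in well-watered R and 21 in R under drought. The array medians over all wheat probe sets were 76.5 to 78.0 in S under drought, 78.1 to 151.5 in well-watered R and 58.6 to 79.5 in R under drought. The order of the R groups changed with the scaling. As deposited, the median level of the 13 was 25.3 in well-watered R and 18.8 in R under drought. It was 19.6 and 23.7 after median scaling, and 19.0 and 25.0 with quantile normalization. S under drought stayed highest, at 40.1, 43.2 and 43.0. No difference among these groups was tested.

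The thresholds fell within a continuous range of signals. The lowest signals on a well-watered S array among the 13 were 265 (Ta.3687.1.S1_at), 275 (Ta.10977.1.S1_at) and 277 (Ta.4878.1.S1_at). Just under the upper threshold stood Ta.24730.2.S1_x_at at 253, Ta.18825.2.S1_x_at at 226 and Ta.11170.1.A1_at at 226. The highest signals elsewhere among the 13 were 123 (Ta.10977.1.S1_at), 122.6 (Ta.3117.1.S1_at) and 119 (TaAffx.12040.1.S1_at). Just over the control level stood TaAffx.108658.1.S1_at, with 130.4 and 444 as its lowest in well-watered S, TaAffx.87171.1.S1_at at 139 and Ta.21373.1.S1_x_at at 142.

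**Figure D3:**
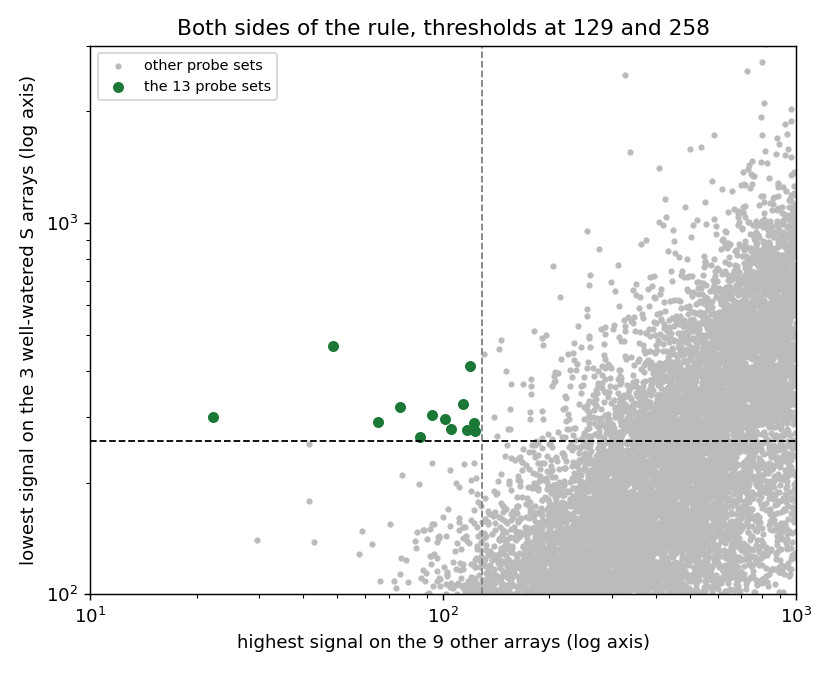
Lowest signal on the 3 well-watered S arrays (y axis) against the highest signal on the 9 other arrays (x axis), both on log axes that show part of the full range, for the 13 probe sets (green) and the others (grey), with dashed lines at the upper threshold and at the control level. The 13 lie in the upper left corner, from 265 to 466 on the y axis, and apart from TaAffx.79111.1.S1_at and Ta.9807.1.A1_at they lie near the edge of the main cloud.

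The choice was repeated without each array in turn. Chosen without well-watered S replicate 1, the list grew to 22, of which 13 (59.1%) reached the upper threshold on that array and 20 (90.9%) reached the control level. Without replicate 2 it held 15, of which 13 (86.7%) reached the upper threshold on it, and without replicate 3 it held 17, of which 13 (76.5%) did. The 13 are part of each count by construction, and these shares are given as a description. Of all probe sets at or above the upper threshold on the other 2 well-watered S arrays, 94.1%, 96.4% and 97.1% reached it on the array left out, more than among the probe sets chosen without it. That wider set also holds far brighter probe sets, such as the brighter ones of FBP, GAPN and petC, and was not matched for level. The 9, 2 and 4 added probe sets measured 87.5 to 253, 154 to 203 and 143 to 226 on the array left out. Leaving out an array of R under drought, or replicate 1 of S under drought, added no probe set. Without well-watered R replicate 3 the list held 18, and the 5 added measured 144 to 361 on it.

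Some transcripts that were high in well-watered S were shared with 1 further group. Of the probe sets at or above the upper threshold on the 3 well-watered S arrays, 263 were at or above the control level on exactly 3 other arrays. Those were the 3 well-watered R arrays for 117, the 3 arrays of S under drought for 104, the 3 of R under drought for none and a mixture for 42. A transcript of watered leaves in both genotypes, or of S leaves in both regimes, was thus seen more often than 1 of well-watered S alone under these thresholds.

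Little else is known of the 13 from the files. The annotation names a gene for 1 of them and for 2.08% of all probe sets. None of the genes looked up for photosynthesis, water deficit, cell wall, growth and division or redox balance was among them, but those lists matched 1 to 3 genes each. By the manufacturer's naming, the prefix Ta marks a cluster of public wheat sequences and TaAffx one built by the manufacturer, the letter A or S an antisense or sense target, and s or x before at a probe set that can detect several transcripts. Of the 13, 9 had the prefix Ta and 4 TaAffx, against 77.6% and 22.4% of the probe sets that reached the upper threshold in well-watered S. The letter A stood in 5 of the 13 (38.5%), against 18.2%. An s form was present for 2 (15.4%), against 8.15%. No x or a form was present, against 17.6% and 14.1%. The counts are too small to read more from these shares, and none was tested.

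A second reading of some transcripts came from probe sets with the same cluster number. The 13 had 13 different cluster numbers. In 4 of these clusters (Ta.13705, Ta.4953, TaAffx.98080 and Ta.10977) the array held 1 further probe set each, and in 9 it held none. These 4 probe sets did not meet the rule and were not chosen by their own signal, but they were read on the same RNA, and those of Ta.4953 and TaAffx.98080 share the target number of their partner and may share probes with it.

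The further probe set of cluster Ta.13705 was also highest in well-watered S. Ta.13705.2.S1_at measured 842, 605 and 364 in well-watered S (604 ± 239, SD, n = 3), in the same order of replicates as Ta.13705.1.A1_at. It measured 150.2, 236 and 166 in well-watered R, 50.4, 94.3 and 48.6 in R under drought and 76.8, 246 and 149 in S under drought. All 3 well-watered S arrays lay above all 9 other arrays, as in 3.69% of all 61115 probe sets, but 5 of the 9 other arrays lay above the control level, so this probe set was not confined to well-watered S.

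This was the only 1 of the 4 that passed the filter on dim signals (above the array median on at least 3 arrays). Its cluster partner was chosen for being high on the well-watered S arrays and low on the others, from the same RNA. That choice could favour a higher signal in well-watered S, and the adjusted p-values do not account for it. They are therefore a description and not separate support. This probe set was higher in well-watered S in both comparisons. On the log2(signal + 16) scale it was higher than in well-watered R by 1.58 ± 0.45 (SE, adjusted p = 0.049, limma over 38398 probe sets), a call that 2.92% of tested probe sets shared in that direction. Between the watered genotypes 1121 probe sets were called higher in S and 1676 lower, a split that median scaling turned to 1735 and 850. That call was at the edge of the threshold of 0.05 and was lost when any of 9 arrays was left out, with adjusted p up to 0.198. It held without replicate 3 of well-watered S and without replicate 1 or 2 of S under drought. It was higher than in S under drought by 1.89 ± 0.45 (adjusted p = 0.00632, limma), a call that 13.8% of tested probe sets shared, and this call was kept without each of the 12 arrays (adjusted p up to 0.0377). The difference between the drought effects of the genotypes was 0.55 ± 0.64, short of the threshold (adjusted p = 0.757, limma), where 0.0755% of tested probe sets were called in that direction. Leaving out 1 array moved the value from 0.16 (without S drought replicate 1) to 0.91 (without S drought replicate 2), and it was 1.14 with median scaling and 1.09 with quantile normalization, with adjusted p of 0.434 to 0.937 over all alternatives. The called probe sets numbered 29, with 28 called the other way, against 126 and 21 after median scaling. A different drought response in S and R was thus not shown by this probe set.

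**Figure D4:**
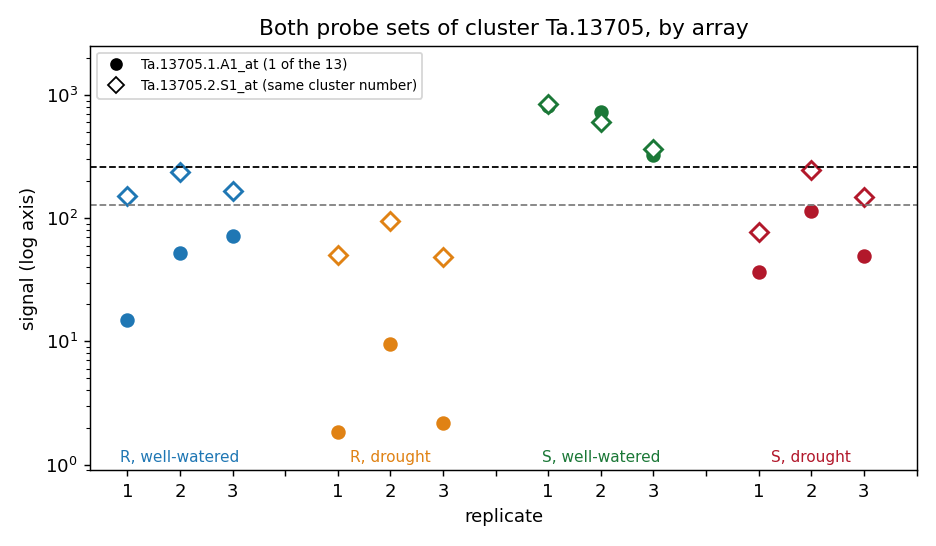
Signal (y axis, log axis) on each of the 12 arrays (x axis, replicates within the 4 groups) for Ta.13705.1.A1_at (filled circles) and Ta.13705.2.S1_at (open diamonds), with dashed lines at the control level and at the upper threshold. Both lie above the upper threshold on the 3 well-watered S arrays, from 325 to 842, and the second also lies above the control level on the 3 well-watered R arrays, from 150.2 to 236.

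The 3 further probe sets of the other clusters were dim. Ta.4953.1.A1_at measured 230.2, 49.9 and 99.1 in well-watered S and at most 39.6 elsewhere, so that its well-watered S arrays lay above the 9 others, although just 1 array exceeded the control level. TaAffx.98080.1.A1_at measured 80.6, 64.01 and 36.3 in well-watered S and 1.53 to 15.9 elsewhere, with well-watered S again above the 9 others but under the control level throughout. Ta.10977.2.S1_at measured 79.4, 56.7 and 31.9 in well-watered S and up to 103.9 in well-watered R, so that its well-watered S arrays overlapped with other groups. These 3 did not pass the filter on dim signals. Without that filter, limma was run over all 61115 probe sets and called neither Ta.4953.1.A1_at nor Ta.10977.2.S1_at. TaAffx.98080.1.A1_at was called higher in well-watered S than in well-watered R (adjusted p = 0.0364, limma), among 960 called in that direction. Against S under drought it was also called higher (adjusted p = 0.00437, limma), among 4763. Its signals lay under the control level. It may share probes with TaAffx.98080.1.A1_s_at, which was chosen for being high on these arrays. These calls are therefore a description and not separate support.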

How the data were processed

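The authors deposited 1 table of signal intensities on a linear scale for 61290 probe sets and 12 arrays, which the submitters' processing notes credit to MAS5. Its version and scaling target: not given in the sources used here. Total RNA went through Affymetrix one-cycle labelling, per the labels' protocols. The 111 AFFX control and 64 RPTR reporter probe sets were left out, and none of them met the rule. Groups and replicate numbers came from the sample titles.

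The rule (at least 258 on the 3 arrays of a group, under 129 on the 9 others) was applied to the deposited intensities, and for each of the 4 groups alike. The members and lists were chosen with earlier results of these data known. Further probe sets of a cluster were tested with limma 3.58.1 in R 4.3.3 (lmFit, eBayes with a trend) on log2(signal + 16), as means of the 4 groups over all 12 arrays, for the 38398 probe sets brighter than the median of the array on 3 or more arrays, with Benjamini-Hochberg adjustment. All 13 members passed this filter through their 3 well-watered S arrays, and none was tested. The fit was tested on simulated data. Named are the 10 brightest members, the 5 with the highest ratio of lowest well-watered S signal to highest other signal, those with a gene, those nearest to the thresholds with their neighbours outside, and the further probe sets of their clusters, which together named all 13. Gene names came from the platform annotation of 2007. Alternatives were other scalings, thresholds, pseudocounts, no filter, the replicate number as a block and each array left out. Same-numbered arrays of different groups did not deviate together in all 18 pairs (correlations across probe sets of −0.126 to 0.181), so the numbers were not taken as pairs. The number of arrays limits the precision. Figures were drawn with matplotlib 3.10.9.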

Additional observations from a re-analysis of the deposited data

How the results depend on the processing

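Of 12 arrays left out in turn, well-watered S replicate 1 changed the count of well-watered S by over 1.5 times (range 13 to 22). The counts ran from 26 to 75 in well-watered R (75 without its replicate 2), from 7 to 14 in R under drought (14 without its replicate 3) and from 8 to 14 in S under drought (13 without well-watered R replicate 1 or R drought replicate 3, and 14 without well-watered S replicate 3). Median scaling gave 8 for well-watered R, 13 for R under drought, 17 for well-watered S and 8 for S under drought. Quantile normalization gave 14, 10, 15 and 7. With the upper threshold lowered to the control level the counts were 163 for well-watered R, 30 for R under drought, 74 for well-watered S and 50 for S under drought, and with 4 times the control level they were 4, 4, 0 and 2. The count of 0 is a count of thresholds passed, with no test.

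The mean well-watered S signal moved by less than 1 SD for 10 of the 13 under median scaling and for 13 under quantile normalization. Ta.13705.2.S1_at was tested because its cluster partner was chosen on these same arrays, so its calls are a description. Its difference between well-watered S and R was positive throughout. The call was lost with a pseudocount of 1 (1.66, adjusted p = 0.0736, limma), with no filter (1.58, adjusted p = 0.0667) and when any of 9 arrays was left out (range over 12 arrays 1.30 to 1.89, adjusted p = 0.0363 to 0.198). The well-watered S arrays against S under drought kept their call in all 6 other settings and without each array. The interaction (0.55) passed the threshold in none of these, at 0.47 to 1.14 in the other settings and 0.16 to 0.91 with 1 array left out. With the replicate block the 3 values were 1.58, 1.89 and 0.55, with adjusted p of 0.0465, 0.00596 and 0.745, and no call changed. With no filter the dim TaAffx.98080.1.A1_at was also called in well-watered S against R (adjusted p = 0.0364, limma) and against S under drought (adjusted p = 0.00437). It may share probes with a member chosen on these same arrays, so these calls are not separate support. Over all tested probe sets, those called higher in well-watered S than in R numbered 1121, and 624 to 1735 in these other settings. Those called in the interaction in the direction of S numbered 29, and 8 to 126.

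Of the probe sets chosen without the well-watered S array that fewest of them reached, the share that reached the upper threshold on it was 59.1% as deposited, 68.0% after median scaling and 62.5% after quantile normalization, alternatives chosen after seeing the data.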

Other observations

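A further 28 probe sets missed the rule on 1 array alone, 15 through a well-watered S array and 13 through another array. Some of them were brighter than any of the 13. Ta.24730.2.S1_x_at measured 253, 1068 and 1123 in well-watered S and at most 41.6 on the 9 other arrays, so that replicate 1 alone, 4.52 below the threshold, kept it out. It met the rule after median scaling. An x form can detect several transcripts.

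Of the 13 kept out by an array of another group, 8 were kept out by a well-watered R array, 5 of these by replicate 3, and 5 by an array of S under drought, 4 of these by replicate 2. No array of R under drought kept one out alone. Ta.5479.2.A1_at measured 417, 463 and 1478 in well-watered S and 239 on replicate 2 of S under drought. Ta.23668.1.S1_at, paired with LOC543327, measured 679.6, 705 and 402 in well-watered S and 228 on well-watered R replicate 3. Of these 13, 7 exceeded the highest control value on all 3 well-watered S arrays, against 2 of the 13 that met the rule.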
